A study of Mus musculus with 12 samples.

Results

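Odorant receptors (ORs) are the seven-transmembrane proteins with which olfactory sensory neurons (OSNs) of the main olfactory epithelium (MOE) detect odorants. Each OSN expresses 1 OR allele, and the axons of all neurons with the same OR meet in the same few glomeruli of the olfactory bulb. A handful of ORs has served as the model for how receptors are chosen, how their axons are sorted and how they bind odorants, and 7 of these genes were followed here: Olfr17 (P2), Olfr151 (M71), Olfr160 (M72), Olfr1507 (MOR28) and Olfr1508 (MOR10), known from tagged alleles and transgenes of axon targeting and gene choice work, Olfr73 (mOR-EG), known as a receptor for eugenol, and Olfr15 (OR3), a broadly tuned receptor of the MOR256 group used in ligand studies. A gene was read from the probe set that carries its symbol alone, and from the one with the highest mean if there were several. Of the 7 genes, 6 have such a probe set, 1 each, out of 1015 OR genes and 19938 genes of the array that have one. Olfr160 lacks one and was skipped, since its only probe set is shared with Olfr151. All 6 lie above the filter of a mean log2 value of 5, as do 984 of the 1015 OR genes.

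The study asked whether the histone variant H2BE takes part in the changes of gene expression that loss of olfactory input brings. Unilateral naris occlusion (UNO) closes 1 nostril, so that the MOE of the closed side is deprived of odorants while the other side keeps its input. The right nostril was cauterised at day 14 and stayed shut for 3 weeks. The 12 arrays fall into 4 groups of 3: H2be-KO closed, H2be-KO open, WT closed and WT open. In H2be-KO mice the coding sequence of H2be was replaced by a Gap43-mCherry reporter on a C57Bl/6 background, and the open side of a KO mouse carries the same allele as its closed side. Sample titles put the mice at 5 weeks of age, whereas the age tag reads 6 months. By the series' design text, each sample pooled MOE tissue of 1 side from a female and a male, 2 mice in all. The legends of the study's figures give another number of mice per pool, and the labels name no mouse, so that samples of a group may share animals. The right side was the closed one throughout, so that side of the body and closure cannot be told apart, and an open side is not tissue of an unoperated mouse.

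The arrays had medians of 7.21 to 7.30 on the log2 scale, and correlations over all probe sets were 0.965 to 0.978 between arrays of a group and 0.964 to 0.978 between arrays of different groups. H2bc21, the current name of H2be, read 11.31 to 11.46 in the 6 KO arrays and 11.55 to 11.75 in the 6 WT arrays, a difference that did not pass on either side (adjusted p = 0.999 on the closed side and 0.641 on the open side). Where its probes lie relative to the replaced part is not given in the sources used here, so the genotypes rest on the labels. Mature OSN markers were abundant, with a mean log2 level of 11.55 to 11.87 over the 6 genes in every array, and the 2 vomeronasal markers measured lay near the filter, at 5.05 to 5.62.

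One of the 6 receptors changed with closure. Olfr1508 rose on the closed side in both genotypes, by 1.61-fold in KO and 1.70-fold in WT mice, and its means differed by 0.06 or less on the log2 scale between the genotypes. The other 5 receptors, Olfr1507 next door included, did not pass the test in either genotype. On the same chromosome, Olfr1509, the OR gene on the other side of Olfr1508, rose with it.

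The proximal regions of Olfr1508 and its neighbours are shown because 2 of the 3 genes rose and 1 did not. They are RefSeq windows on GRCm38.p6 of 250 bases before and 50 bases after the annotated start, written 5′ to 3′ on the strand of the gene. OR promoters are known for short sites bound by homeodomain proteins such as Lhx2, and capitals mark 2 strings of that kind. The first is TAATGA, which appears as TCATTA where it lies on the opposite strand. The second string, TAATTA, reads the same on both strands. Olfr1508 lies on the minus strand at chr14:52467412-52467711, Olfr1509 on the plus strand at chr14:52450143-52450442, and Olfr1510 on the minus strand at chr14:52410878-52411177.
Olfr1508: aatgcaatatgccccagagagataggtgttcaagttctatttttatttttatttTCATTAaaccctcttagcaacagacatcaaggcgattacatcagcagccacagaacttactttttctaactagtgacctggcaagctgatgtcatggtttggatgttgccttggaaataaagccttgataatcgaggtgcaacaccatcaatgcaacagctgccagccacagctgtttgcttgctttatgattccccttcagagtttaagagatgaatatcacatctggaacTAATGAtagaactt
Olfr1509: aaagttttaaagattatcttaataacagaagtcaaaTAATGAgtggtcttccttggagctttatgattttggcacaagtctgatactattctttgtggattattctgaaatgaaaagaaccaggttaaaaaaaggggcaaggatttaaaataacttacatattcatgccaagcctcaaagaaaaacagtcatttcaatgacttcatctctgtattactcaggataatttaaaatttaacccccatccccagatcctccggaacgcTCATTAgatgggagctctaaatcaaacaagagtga
Olfr1510: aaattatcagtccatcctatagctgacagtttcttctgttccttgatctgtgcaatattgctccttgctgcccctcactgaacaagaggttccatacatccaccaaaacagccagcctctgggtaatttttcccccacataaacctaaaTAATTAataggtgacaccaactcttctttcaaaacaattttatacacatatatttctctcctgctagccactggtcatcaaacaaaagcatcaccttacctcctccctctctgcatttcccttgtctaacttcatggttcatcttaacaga
TAATGA occurred on each strand in the windows of both genes that rose. In Olfr1508 its copies begin at base -196, on the opposite strand, and at base 37 after the start. In Olfr1509 they begin at base -214 and, on the opposite strand, at base 16. The Olfr1510 window holds no TAATGA and a single TAATTA at base -101. Such strings are common: 28.8% of 948 OR windows and 9.78% of all 32851 windows hold TAATGA on either strand, and 18.6% of OR windows and 5.29% of all windows hold TAATTA. The share of windows with a copy of TAATGA on each strand was not counted. A match of letters is a description of the window only. The table holds no window for Olfr1507 and Olfr151. In the windows of Olfr17, Olfr15 and Olfr73 the annotated start is the start codon itself, as in 72.4% of OR windows, so that they show no transcription start and were not printed.

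Olfr1508, the MOR10 receptor of the chromosome 14 cluster, separated the sides without overlap in both genotypes. Its log2 values were 10.01, 10.02 and 10.15 in KO closed and 9.24, 9.41 and 9.47 in KO open samples. In WT mice they were 9.93, 10.12 and 10.20 in closed and 9.20, 9.42 and 9.34 in open samples. All 6 closed arrays lay above all 6 open arrays, and the lowest closed value exceeded the highest open value in each genotype. The log2 change was 0.69 in KO (SE 0.10, 95% CI 0.46 to 0.92, adjusted p = 0.00899 by limma over all probe sets, and 0.00185 over OR genes as in the methods of the study). In WT it was 0.77 (SE 0.10, 95% CI 0.54 to 0.99, adjusted p = 0.00526 over all probe sets and 0.000867 over OR genes). Of all probe sets, 1.05% passed in KO and 0.855% in WT mice, and of OR genes 12% and 13%. Olfr1508 ranked 14th by rise among the 984 OR genes in KO and 8th in WT. Averaged over the genotypes the change was 0.73 (SE 0.07, adjusted p = 0.000235), a comparison in which 2.9% of probe sets and 26.2% of OR genes passed. In an exact two-sided permutation of the side labels within each genotype, p was 0.005, the smallest that the 400 arrangements allow. This permutation, like the other exact permutations below, treated closed and open samples as independent. The labels do not say whether a closed and an open sample came from the same mice. Pairing was not allowed for, so the permutation p-values hold only if the samples were unpaired. The limma fit behind every call likewise gave each group 1 mean and took no account of pairing. A fit with the replicate number as a block is described below, and it ended the calls of Olfr1509 in KO and WT. Groups of single genotypes failed to overlap in 31.9% of OR genes in KO and 27.9% in WT, and the 6 closed and 6 open arrays did so in 13.2%. In KO mice the call of Olfr1508 was lost without KO open replicate 1 (0.62, adjusted p = 0.0584) and without KO closed replicate 3 (0.64, adjusted p = 0.0527), and in fits to the 6 arrays of 1 genotype it missed the threshold in KO (adjusted p = 0.0507) and WT (0.0977).

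**Figure D1:**
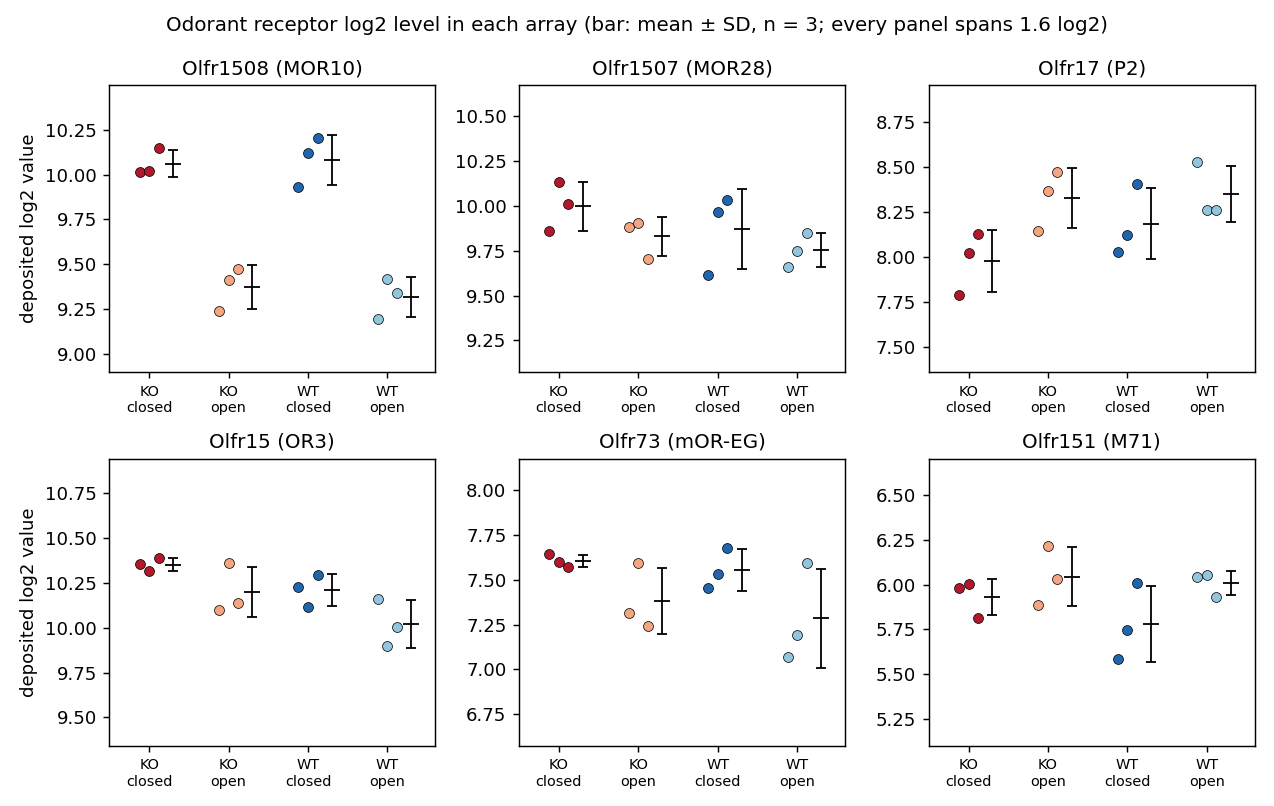
Deposited log2 value of each receptor in the 12 arrays. Points are arrays, grouped as KO closed, KO open, WT closed and WT open, and bars give the mean ± SD of 3 arrays; the panels differ in their offset but each spans 1.6 log2. Olfr1508 separates closed arrays (9.93 and above) from open arrays (9.47 and below), while the sides overlap in at least 1 genotype for each of the other receptors.

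Olfr1507, the MOR28 receptor and the classic gene of this cluster, did not follow Olfr1508. It read 9.86, 10.13 and 10.01 in KO closed and 9.88, 9.90 and 9.71 in KO open samples, and 9.62, 9.97 and 10.03 in WT closed and 9.66, 9.75 and 9.85 in WT open samples. Closed and open values overlapped in both genotypes, and WT closed replicate 1 was the lowest of the 12. The change was 0.17 in KO (95% CI -0.10 to 0.44, adjusted p = 0.728) and 0.12 in WT (95% CI -0.15 to 0.39, adjusted p = 0.885), so that rises above 1.35-fold in KO and 1.31-fold in WT lie outside the intervals. The change of Olfr1508 exceeded that of Olfr1507 by 0.58 (SE 0.083) on the log2 scale within the same arrays. This contrast was chosen after the values were seen, and its exact permutation p was 0.005, the smallest possible; without any 1 array it lay between 0.53 and 0.64. Both genes, like Olfr1509, belong to the MOR244 group, and whether their probe sets read one another's transcripts was not tested.

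Of the genes around the 7 receptors, taken as up to 3 OR genes on each side in chromosome order, 23 of 26 were tested. Of all probe sets, 1.05% passed with closure in KO and 0.855% in WT mice. By the same adjustment, 1 of these neighbours rose and 0 fell in KO mice, and likewise 1 rose and 0 fell in WT mice. In both cases this was Olfr1509 (MOR83), which read 9.87, 9.78 and 9.88 in KO closed and 9.14, 9.31 and 9.27 in KO open samples, and 9.66, 9.85 and 10.03 in WT closed and 9.19, 9.36 and 9.42 in WT open samples. Closed and open values of Olfr1509 did not overlap in either genotype. Its change was 0.60 in KO (SE 0.11, adjusted p = 0.0242) and 0.53 in WT (SE 0.11, adjusted p = 0.0483), and 0.57 (adjusted p = 0.00168) averaged over the genotypes. The calls within a genotype were close to the threshold. The KO call was lost without any 1 of the 6 KO arrays and the WT call was kept only without WT closed replicate 1, with adjusted p from 0.0179 to 0.129 in KO and from 0.0458 to 0.217 in WT. That of the averaged change stayed at or below 0.00728. Olfr1510, on the far side of Olfr1509 and named here although it did not pass, differed by -0.03 in KO (95% CI -0.23 to 0.17) and by 0.05 in WT (95% CI -0.15 to 0.25). Olfr49, the next OR gene beyond Olfr1507, differed by -0.22 in KO and 0.13 in WT, and its arrays spread more widely (6.32 to 7.20). Olfr1511 has no probe set of its own. The rise was thus found in 2 adjacent genes of the 5 measured in this stretch.

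**Figure D2:**
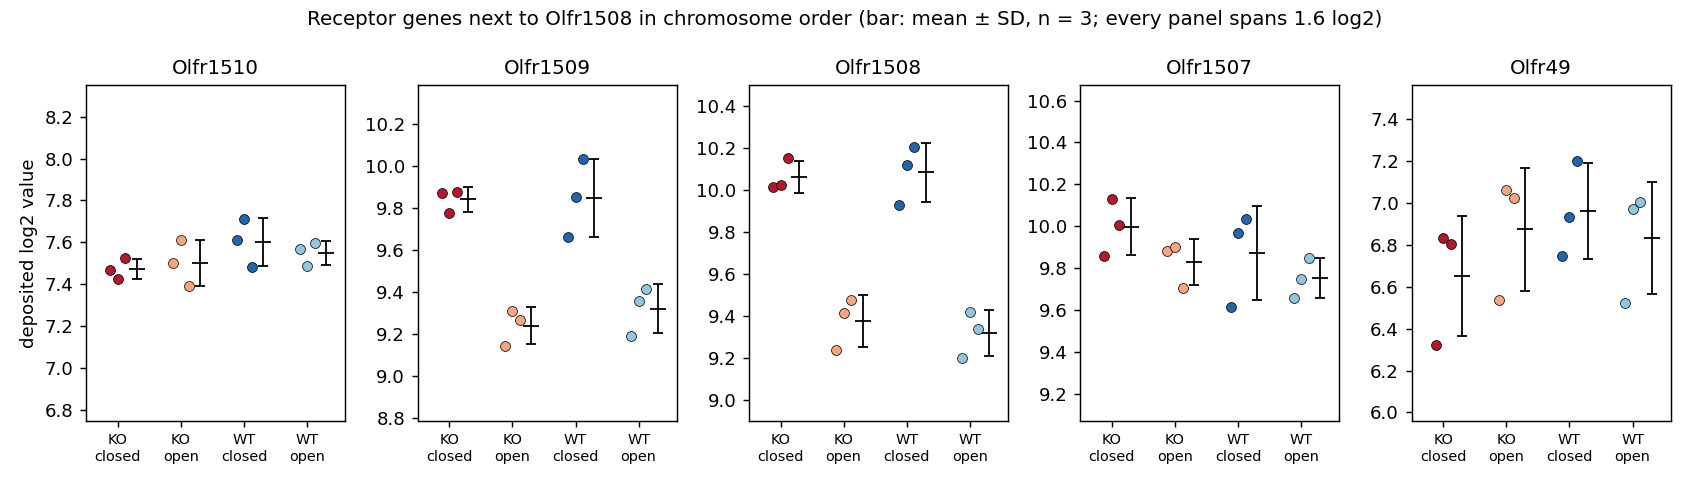
Deposited log2 values of 5 OR genes in chromosome order around Olfr1508. Points are arrays in the groups KO closed, KO open, WT closed and WT open, and bars are mean ± SD of 3 arrays; each panel spans 1.6 log2. Closed arrays lie above open arrays for Olfr1509 and Olfr1508, and overlap them for Olfr1510, Olfr1507 and Olfr49.

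Olfr17, the P2 receptor of chromosome 7, had lower means on the closed side. It read 7.79, 8.02 and 8.13 in KO closed and 8.14, 8.37 and 8.47 in KO open samples, which did not overlap. In WT mice it read 8.03, 8.12 and 8.40 in closed and 8.53, 8.26 and 8.26 in open samples, which did. The change was -0.35 in KO (95% CI -0.65 to -0.05, unadjusted p = 0.0258, adjusted p = 0.376) and -0.17 in WT (95% CI -0.47 to 0.13, adjusted p = 0.824). Averaged over genotypes it was -0.26 (adjusted p = 0.25 over all probe sets and 0.0705 over OR genes; exact permutation p = 0.04, unadjusted for the 6 receptors tested). Of the 6 OR genes around Olfr17, Olfr2 alone passed in a comparison of the sides. Olfr2, the I7 receptor for octanal, had a change of 0.26 in KO (adjusted p = 0.611) and 0.67 in WT (adjusted p = 0.0642 over all probe sets and 0.0112 over OR genes), opposite in sign to Olfr17, and rose by 0.46 in the average (adjusted p = 0.033, and up to 0.0958 without 1 array).

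Olfr15 and Olfr73 had higher means on the closed side in both genotypes and did not pass. Olfr15 (OR3), on chromosome 16, read 10.35, 10.31 and 10.39 in KO closed and 10.10, 10.36 and 10.14 in KO open samples, and 10.22, 10.11 and 10.29 in WT closed and 10.16, 9.90 and 10.00 in WT open samples. A single open sample reached into the closed range in each genotype. The change was 0.15 in KO (adjusted p = 0.684) and 0.19 in WT (adjusted p = 0.631), and 0.17 in the average (95% CI 0.02 to 0.33, adjusted p = 0.316, exact permutation p = 0.035). Olfr73 (mOR-EG), on chromosome 2, read 7.64, 7.60 and 7.57 in KO closed and 7.31, 7.59 and 7.24 in KO open samples. In WT mice its values were 7.45, 7.53 and 7.68 in closed and 7.07, 7.19 and 7.59 in open samples. One open array of each genotype stood well above its other two and within the closed range. The change was 0.22 in KO (adjusted p = 0.657) and 0.27 in WT (adjusted p = 0.609), and 0.25 in the average (95% CI 0.03 to 0.46, adjusted p = 0.286, exact permutation p = 0.05). Near Olfr73, Olfr1160 passed over all probe sets in the average alone, with 0.31 (adjusted p = 0.0496, and up to 0.138 without 1 array). Its change was 0.13 in KO (adjusted p = 0.763 over all probe sets and 0.477 over OR genes) and 0.49 in WT (0.0624 and 0.0109).

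Olfr151 (M71), on chromosome 9 and annotated as a transcribed pseudogene in the RefSeq table, was the receptor nearest to the filter, with a mean of 5.94. It read 5.98, 6.00 and 5.81 in KO closed and 5.89, 6.22 and 6.03 in KO open samples, and 5.59, 5.75 and 6.01 in WT closed and 6.04, 6.05 and 5.93 in WT open samples. The sides overlapped in both genotypes. The change was -0.11 in KO (adjusted p = 0.845) and -0.23 in WT (adjusted p = 0.631), with 95% CIs of -0.38 to 0.15 and -0.50 to 0.04. The probe set that Olfr151 shares with Olfr160 (M72) did not follow it in sign: its change was 0.13 in KO (adjusted p = 0.775) and 0.13 in WT (adjusted p = 0.821), and neither passed. It cannot be divided between the 2 receptors, so no value is given for M72. Among their neighbours, Olfr873 fell by 0.43 on the log2 scale in the average (adjusted p = 0.0481, and up to 0.119 without 1 array). Its change was -0.63 in KO (adjusted p = 0.0831 over all probe sets and 0.018 over OR genes) and -0.24 in WT (0.712 and 0.321). Olfr876, a neighbour of Olfr151, went the other way in the average, with 0.36 (adjusted p = 0.077 over all probe sets and 0.0163 over OR genes).

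**Figure D3:**
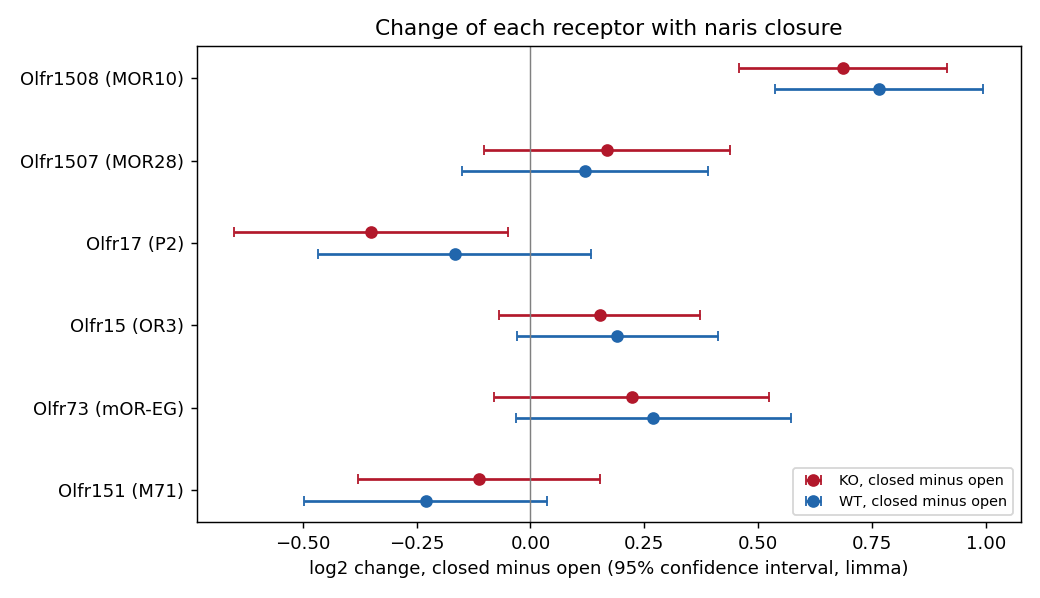
Change of each receptor, closed minus open, on the log2 scale in KO (red, upper point) and WT mice (blue, lower point). Points are limma estimates and lines 95% confidence intervals; the vertical line marks no change. The intervals of Olfr1508 begin at 0.46 in KO and 0.54 in WT, while those of the other receptors include 0 or, for Olfr17 in KO, end at -0.05.

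Set against all OR genes, the receptors were spread over the range of changes, and among the 6 Olfr1508 lay nearest to an end. The median change of the 6 was 0.16 in KO and 0.16 in WT, against medians of 0.04 and 0.01 over the 984 OR genes and 0.02 and -0.01 over all probe sets. With closure, 79 OR genes rose and 39 fell in KO, and 90 rose and 38 fell in WT (adjusted over OR genes). The share of the receptors called, 1 of 6, compares with the 12% and 13% of OR genes given above. At an unadjusted threshold of 0.05, 2 of the 6 passed in KO, 1 in WT and 4 in the average, against 26.6%, 25.6% and 38.4% of the 984 OR genes in the same comparisons.

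**Figure D4:**
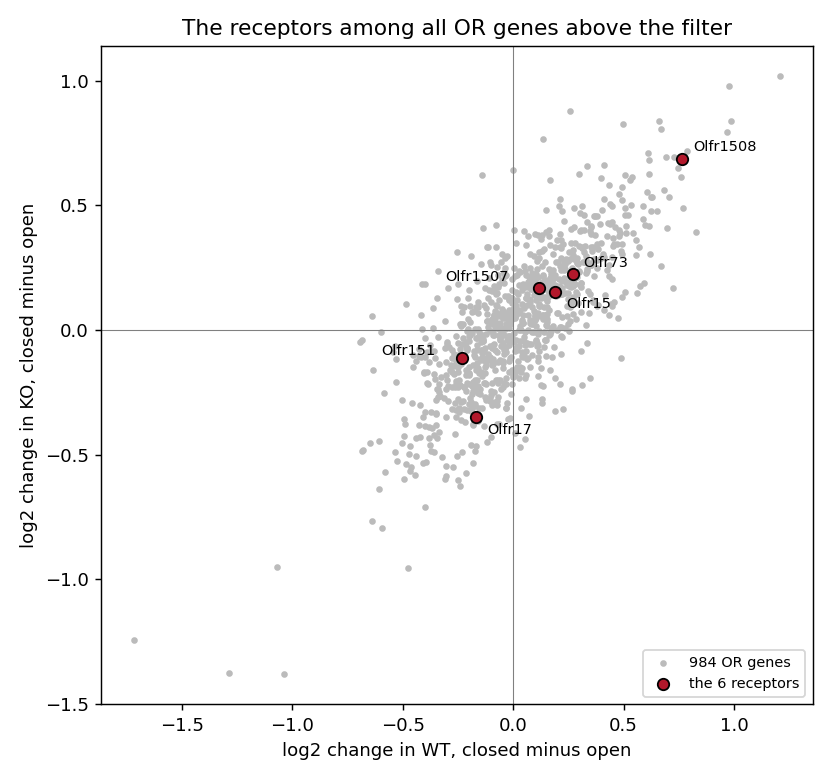
Change with closure of the 984 OR genes above the filter, WT on the horizontal and KO on the vertical axis, both closed minus open on the log2 scale. Grey points are OR genes and red points the 6 receptors. Olfr1508 lies at 0.77 in WT and 0.69 in KO, and the other receptors lie between -0.23 and 0.27 in WT and between -0.35 and 0.22 in KO.

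None of the 6 receptors differed past the threshold between the genotypes. On the closed side the KO minus WT differences ran between -0.21 (Olfr17) and 0.15 (Olfr151), and on the open side between -0.02 (Olfr17) and 0.18 (Olfr15). By limma 0 of the 6 passed on either side, and 0 had an unadjusted p under 0.05 (6.71% of OR genes did on the closed side and 6.91% on the open side). Each adjusted p was at least 0.806 over all probe sets and at least 0.765 over OR genes. For Olfr1508 the difference was -0.02 on the closed side (95% CI -0.25 to 0.21) and 0.06 on the open side (95% CI -0.17 to 0.29). Its 4 group means were ordered WT closed (10.08 ± 0.14), KO closed (10.06 ± 0.08), KO open (9.37 ± 0.12) and WT open (9.32 ± 0.11; SD, n = 3 each), and only the step from the closed to the open groups exceeded the spread. For Olfr15 the KO closed samples all lay above the WT closed samples (difference 0.14, adjusted p = 0.999). Of OR genes, 11.1% did not overlap between KO and WT on the closed side and 11.9% on the open side. Of all probe sets, 0.0245% passed between KO and WT on the closed side and 0.0215% on the open side, and of OR genes 0% on both.

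The effect of closure did not differ detectably between the genotypes for any of the 6. The difference between the KO and the WT change was -0.08 for Olfr1508 (95% CI -0.40 to 0.24) and 0.05 for Olfr1507 (95% CI -0.33 to 0.43), and it was largest in size among the 6 for Olfr17, at -0.18 (95% CI -0.61 to 0.24). All 6 had an adjusted p of 1 over all probe sets and 0.996 over OR genes. Neither among all probe sets nor among OR genes did any pass (0% of each), at 1309 probe sets and 33 OR genes (3.35%) with an unadjusted p under 0.05. The intervals leave room for differences of up to about 0.4 for Olfr1508 on the log2 scale.

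Marker genes of the OSN stages moved with closure, and a bulk sample cannot tell fewer cells of a type from less RNA per cell. Over the 6 mature OSN markers the mean log2 level was 11.85 to 11.87 in KO closed and 11.55 to 11.64 in KO open arrays, and 11.79 to 11.87 in WT closed and 11.57 to 11.60 in WT open arrays. In the average of both genotypes, where 2.9% of all probe sets passed, 5 of these 6 rose and Omp did not. The 5 immature OSN markers all fell in that comparison, and their mean level was 9.57 to 9.65 in KO closed against 9.89 to 10.03 in KO open arrays, and 9.55 to 9.66 in WT closed against 9.95 to 9.97 in WT open arrays. None of the 5 sustentacular, 3 basal and 4 ciliated markers tested passed with closure. With each array centred on its 6 mature OSN markers, a scaling chosen after the values were seen, the median change of all probe sets became -0.25 in both genotypes and that of OR genes -0.23 in KO and -0.22 in WT. On that scale Olfr1508 still rose, by 0.42 in KO (adjusted p = 0.0241) and 0.53 in WT (adjusted p = 0.0124), whereas Olfr1509 had 0.33 in KO (adjusted p = 0.0473) and 0.29 in WT (adjusted p = 0.0699). Olfr17 fell by 0.62 in KO (adjusted p = 0.0168), with -0.40 in WT (adjusted p = 0.0593), and Olfr151 fell by 0.38 in KO (adjusted p = 0.0383) and by 0.47 in WT (adjusted p = 0.0245). Olfr15 and Olfr1507 turned to -0.12 and -0.10 in KO and to -0.04 and -0.12 in WT, and none of these passed. In that scaling 15.7% of all probe sets passed in KO and 12.5% in WT, so the counts of falling receptors are to be read against the shifted median. Which part of the change of any receptor goes with the share of mature neurons was not tested further.

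The genes that OR expression and signalling rely on moved one way where they moved. Of 18 such genes, 3 rose and 0 fell in KO, 1 rose and 0 fell in WT, and 8 rose and 0 fell in the average. Of all probe sets, 1.05%, 0.855% and 2.9% passed in the same comparisons. Cnga4, which forms part of the cation channel that cyclic AMP opens once an OR is activated, rose by 0.42 in KO (adjusted p = 0.025) and 0.37 in WT (adjusted p = 0.0487). Cngb1, a further part of that channel, and Ano2, the chloride channel that amplifies its current, rose by 0.43 and 0.38 in KO (adjusted p = 0.0254 and 0.0463). In the average these were joined by Gnal, Adcy3 and Cnga2 of the transduction cascade and by Rtp1 and Reep1, which help ORs to the cell surface. Of the 8, Gnal, Adcy3, Cnga2 and Cnga4 are also among the 6 mature OSN markers above, so that the counts of these 2 lists are not independent. With arrays centred on the mature OSN markers, the changes of Cnga4, Cngb1 and Ano2 in KO became 0.15, 0.16 and 0.11 (adjusted p = 0.155, 0.148 and 0.288) and that of Cnga4 in WT 0.14 (adjusted p = 0.187), and none of these calls was kept. In the average on that scale Cnga4 still passed (adjusted p = 0.0423), whereas Cngb1 and Ano2 had adjusted p of 0.0698 and 0.0821. Lhx2, Emx2, Ldb1 and Ebf1, transcription regulators tied to OR gene expression, did not pass, with changes in the average of 0.02, 0.07, -0.10 and -0.09. The WT call of Cnga4 and the KO call of Ano2 were lost without any 1 of the 12 arrays (highest adjusted p 0.196 and 0.229), and the KO calls of Cnga4 and Cngb1 without any 1 of the 6 KO arrays (0.129 and 0.119).

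With closure, 1.05% of all probe sets passed in KO and 0.855% in WT. Of 8 other ORs known from ligand and targeting work, 0 passed over all probe sets in KO and 1 rose in WT. In the average, where 2.9% of all probe sets passed, 2 of the 8 rose and 1 fell by limma. Those that rose were Olfr6 (0.45, adjusted p = 0.000571) and Olfr2, given above. Olfr1440 fell (-0.32, adjusted p = 0.0461, and up to 0.12 without 1 array). Olfr6 (M50), a member of that list, read 10.32 to 10.39 in KO closed against 9.98 to 10.10 in KO open samples, and 10.44 to 10.49 in WT closed against 9.89 to 9.90 in WT open samples. Its change was 0.33 in KO (adjusted p = 0.067 over all probe sets and 0.0139 over OR genes) and 0.57 in WT (adjusted p = 0.00367). Olfr1440 (MOR215-1) fell by 0.47 in KO when adjusted over OR genes (adjusted p = 0.0152, limma), not over all probe sets (adjusted p = 0.0718), with -0.17 in WT (adjusted p = 0.729). The remaining receptors of the list, Olfr16 (MOR23) and Olfr545 among them, lay between -0.29 and 0.25 in both genotypes and did not pass, apart from Olfr2 given above.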

How the data were processed

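RNA of 12 MOE samples was measured on Mouse Gene 1.0 ST arrays of Affymetrix. The deposited table holds log2 values, which the authors made in the Affymetrix Expression Console by sketch-quantile normalization and IterPLIER summarisation, after a search for outlier arrays. A probe set's level and its change with closure thus depend on that scaling, and the probes' positions are not given in the sources used here. Gene names came from the platform's annotation: 21789 probe sets carry 1 symbol, 1621 several and 12146 none. Of 35556 probe sets, 32615 with a mean above 5 entered limma 3.58.1 in R 4.3.3 (lmFit and eBayes, 1 mean per group, all 12 arrays, 11.5 degrees of freedom), with Benjamini-Hochberg adjustment over all of them. A call is an adjusted p under 0.05; the adjustment over OR genes follows the methods of the study. Confidence intervals are at 95%. Promoter windows came from RefSeq (GRCm38.p6), and 4 of the 6 measured receptors have one. Alternatives were another filter, adjustment, normalization, variance model and array set.

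The receptors and gene lists were chosen with earlier results of these data known. Genes beyond the 7 were named where they neighbour a receptor and were called, resemble a called receptor over the 12 arrays, or stand in the lists of classic ORs and of OR signalling. The labels do not say that the samples of a group came from separate mice: the design text gives 2 mice a sample, and the figure legends of the study another number. The p-values therefore measure only the spread between these samples, which may be partly technical, and 3 arrays a group limit the precision. No columns of other samples were found (0), and 0 values were missing.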

Additional observations from a re-analysis of the deposited data

How the results depend on the processing

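Olfr1508 was called in each closure comparison under all alternatives but the following. Fits to the arrays of 1 genotype alone called 0 receptors in KO and 0 in WT. In these fits the SE of Olfr1508 was 0.1021 in KO and 0.1168 in WT, against 0.1045 in the main fit. The reason for the lost calls was not tested. Without each array in turn the count of receptors called was 0 to 1 in KO, being 0 without KO open replicate 1 or KO closed replicate 3, and 1 throughout in WT and in the average. Centring on mature OSN markers, which was chosen after the data were seen and moves the median of all probe sets by -0.25, gave 3 calls in KO, 2 in WT and 3 in the average (47.1% of all probe sets passed in that last fit). It turned Olfr15 to -0.12 in KO, -0.044 in WT and -0.080 in the average, Olfr1507 to -0.10, -0.12 and -0.11, and Olfr73 to -0.046 in KO and -0.0056 in the average; none of these passed in either scaling. Olfr2 and Olfr1160 became -0.012 and -0.14 in KO.

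Differences near 0 between genotypes changed sign, and none passed in any setting. Over sets without 1 array the KO minus WT difference on the closed side ran from -0.0020 to 0.11 for Olfr73, -0.0018 to 0.21 for Olfr1507 and -0.098 to 0.038 for Olfr1508. On the open side it ran from -0.095 to 0.069 for Olfr17, -0.0094 to 0.25 for Olfr73, -0.051 to 0.11 for Olfr151 and -0.0030 to 0.13 for Olfr1508; median centring gave 0.028 for Olfr17 and array weights -0.0015 for Olfr151. The difference between the changes ran from -0.11 to 0.041 for Olfr15 (0.019 with array weights), -0.20 to 0.059 for Olfr73 and -0.079 to 0.13 for Olfr1507. The causes were not tested.

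The replicate numbers are shared between groups, and the labels do not say whether equal numbers pair the samples. The deviations of closed and open samples with the same number correlated at 0.05, 0.23 and 0.03 in KO and at -0.01, 0.17 and 0.02 in WT. Those with different numbers correlated at -0.19 to 0.13 in KO and -0.11 to 0.07 in WT. Such correlations cannot decide whether samples with the same number came from the same mice. With the number as a replicate block, 1 receptor was called in KO, 1 in WT and 1 in the average, Olfr1508 having an adjusted p of 0.0305, 0.0227 and 0.00285, while calls over all probe sets went to 116 in KO (341 without the block), 97 in WT (279) and 647 in the average (945). The block also ended the calls of Olfr1509 in KO (adjusted p = 0.0547) and WT (0.086), of Cnga4 in KO (0.102) and WT (0.137), of Cngb1 and Ano2 in KO (0.112 and 0.128), of St3gal4 in KO (0.116) and WT (0.107), and of Olfr2, Olfr1440 and Olfr1160 in the average (0.0714, 0.0639 and 0.0848), whereas Olfr873 became called in KO (0.0438). The mean of several probe sets per gene could not be tried, as each receptor has 1. Signal limits Olfr151 most: with the filter at 7 it was not tested.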

Other observations

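Over the 12 arrays, the 2 genes of 19389 searched whose log2 values were most like those of Olfr1508 were Mdga2, a cell adhesion protein that regulates synapses (Pearson r = 0.989), and St3gal4, a sialyltransferase (r = 0.988). The arrays share the 4 groups, so any 2 genes that respond to closure alike correlate here. Mdga2 read 8.85 to 9.03 in KO closed against 8.13 to 8.32 in KO open samples, and 8.91 to 9.03 in WT closed against 8.10 to 8.19 in WT open samples. It rose by 0.70 in KO (adjusted p = 0.00253) and by 0.85 in WT (adjusted p = 0.000859). St3gal4 rose by 0.39 in KO (adjusted p = 0.0474) and by 0.41 in WT (adjusted p = 0.0414), and lost its call within either genotype without any 1 of the 12 arrays (highest adjusted p 0.207 in KO and 0.19 in WT). Olfr1507 correlated with Olfr1508 at r = 0.552 over the same arrays, and at 0.437 once the group means were taken off.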
